A study of Mus musculus with 35 samples.

Results

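The axon guidance ligands and receptors were taken as the genes whose names place them in the semaphorin (Sema), plexin (Plxn), neuropilin (Nrp), Eph receptor, ephrin (Efn), Robo, Slit, netrin (Ntn) or Unc5 families, together with Dcc, and numbered 69 of the 21203 genes in the table. By family there were 20 semaphorins, 9 plexins, 2 neuropilins, 14 Eph receptors, 8 ephrins, 7 Robo and Slit genes and 9 netrin, Dcc and Unc5 genes. All 69 passed the filter on low counts and were among the 17131 genes tested. The data were bulk RNA sequencing of left cortex, in a strip around the injection site that the labels give as 2 mm wide and the methods as wider, from male C57BL/6NCrl mice of 8 to 9 weeks with a closed head injury or a Sham procedure. Injured mice received an injection into the left hippocampus on day 5 after the impact, and tissue was collected at 1 or 3 weeks post injury (wpi), the earlier time being 2 days after the injection. The injection held phosphate-buffered saline (PBS 1 wpi, n = 5, and PBS 3 wpi, n = 4), mesenchymal stromal cells (MSC 1 wpi and MSC 3 wpi, n = 5 each), or the same kind of cells transfected with synthetic interleukin-4 mRNA (IL-4 MSC 1 wpi and IL-4 MSC 3 wpi, n = 5 each). Sham mice (n = 5) had no impact and no injection, and replicates 3 and 4 were collected in week 1 and replicates 1, 2 and 5 in week 3. Each library came from 1 mouse, with 29838316 to 41554249 estimated counts, so that 3 counts correspond to 0.0722 to 0.101 counts per 1e6 counts (CPM). The sample titles hold a bracketed number whose meaning the labels do not give, which is shared within each injured group and takes 2 values in Sham that coincide with its weeks of collection.

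Axon guidance molecules tell a growing axon where to go, some by attraction and others by repulsion. Semaphorins are read by plexins, with neuropilins as co-receptors for the secreted class, ephrins on 1 cell are read by Eph receptor tyrosine kinases on the next, Slits are read by Robo receptors, and netrins by Dcc and the Unc5 receptors. In the adult brain many of them remain at synapses, on glia and on blood vessels, and several are known as barriers to axon regrowth after injury.

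In Sham tissue the members spanned a wide range of levels. Per transcript length, in transcripts per 1e6 transcripts (TPM), the most abundant was Epha4, a receptor for both ephrin classes, at 107 ± 7.94 TPM (SD, n = 5), a level above 92.5% of all genes in the table. Sema7a, a membrane-anchored semaphorin that acts through integrins and plexin C1, was at 97.4 ± 12.9 TPM, and Efnb3, a transmembrane ephrin of the midline, at 79.2 ± 5.98 TPM. The lowest were Efna4 (0.421 ± 0.145 TPM), Epha1 (0.772 ± 0.316 TPM) and Epha2 (0.929 ± 0.238 TPM). Efna4 was counted at 4 to 23 estimated counts in each library, and its fold changes are imprecise. All values below are in CPM unless stated, which compares 1 gene across libraries and not genes with each other.

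Some libraries stood apart before any member was considered. The 8 cortex markers gave a mean log2 CPM of 6.40 ± 0.08 in Sham and 6.14 to 6.42 as group means in the injured groups, with a sum of 702 to 829 CPM in Sham and Rasgrf2 the most abundant, so that cortex RNA was present in each group. Marker genes of 3 regions beside the cortex, the striatum, hippocampus and thalamus, were above 0 in all 34 libraries. As the mean log2 CPM of 12 striatum markers, IL-4 MSC 3 wpi replicates 1 to 5 were at 6.21, 4.17, 6.16, 6.97 and 6.45. The other 6 groups reached 5.42 at most, so that 4 of the 5 IL-4 MSC 3 wpi libraries lay above every other library and replicate 2 lay among them. The summed striatum marker level was 1590, 393, 1530, 2600 and 1910 CPM in those 5 libraries and 222 to 902 CPM in Sham, with Pde10a the most abundant marker in each. Of the 7 hippocampus markers the mean log2 CPM was 2.10, 4.07, 3.23, 1.39 and 2.93 in the same order, against 3.65 to 4.31 in Sham, with a sum of 68.3, 180, 99.0, 44.1 and 85.5 CPM and Prox1 the most abundant. The 6 thalamus markers summed to 474, 532, 276, 214 and 397 CPM in Sham replicates 1 to 5, to 210, 567, 213, 92.7 and 152 CPM in IL-4 MSC 3 wpi and to 430 ± 111 CPM in MSC 3 wpi, with Prkcd the most abundant at 129 ± 71.4 CPM in Sham. The tissue labelled left cortex thus held RNA of these marker genes in amounts that varied between libraries. Sham itself was uneven, with striatum scores of 5.14, 5.28, 3.27, 3.28 and 5.42 for replicates 1 to 5, the pair from week 1 being the low ones. On 6 choroid plexus markers Sham replicate 4 (2.26) and PBS 3 wpi replicate 2 (0.62) were below all other libraries, which lay between 3.86 and 5.53. The counts of members in comparisons with IL-4 MSC 3 wpi are therefore given with and without the 4 high-striatum libraries.

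**Figure D1:**
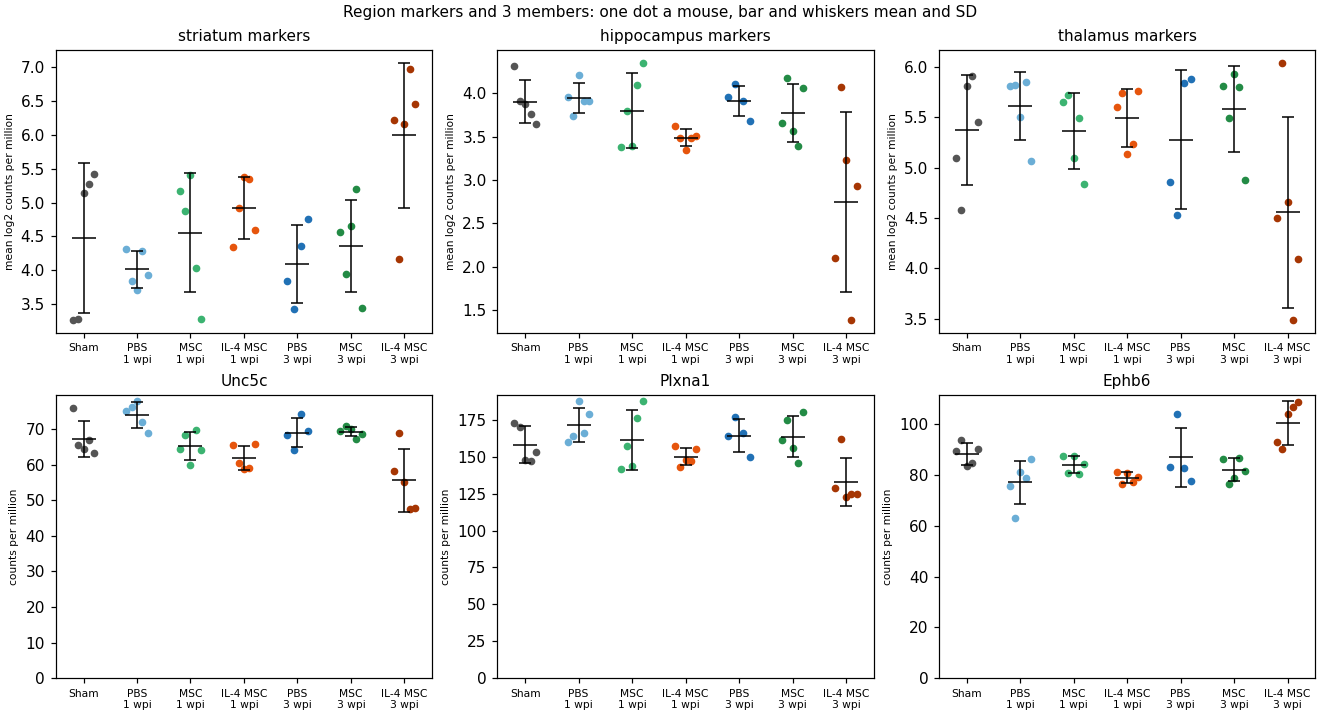
Upper row: mean log2 CPM of the striatum, hippocampus and thalamus markers in each library, by group; lower row: CPM of Unc5c, Plxna1 and Ephb6 in the same libraries. Each dot is 1 mouse and the bar and whiskers are mean and SD; 4 of the 5 IL-4 MSC 3 wpi libraries lie above 6 in the striatum panel, and the same 4 are the low ones for Unc5c and Plxna1.

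The first question was what injury and each treatment did to the members at 1 wpi, with edgeR fitted to all 17131 genes and a gene said to pass at a Benjamini-Hochberg adjusted p under 0.05. Against Sham, 5 of 69 members were higher in PBS 1 wpi and 5 were lower, where 8.73% of all genes were higher and 5.03% lower. In MSC 1 wpi 6 members were higher (11.0% of all genes) and 2 lower (6.89%). In IL-4 MSC 1 wpi 7 were higher (18.4% of all genes) and 24 lower (18.5%). The median log2 fold change of the members was −0.024, −0.069 and −0.094 in the 3 comparisons, against −0.005, −0.008 and −0.018 over all genes. These are bulk tissue values, in which fewer cells of a type and less RNA per cell cannot be told apart.

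Scaling moved the balance of higher and lower calls. With library size only, in place of trimmed mean (TMM) factors that ran from 0.968 to 1.038, 5 members were higher and 3 lower in PBS 1 wpi, 8 and 1 in MSC 1 wpi, and 11 and 9 in IL-4 MSC 1 wpi. In the last comparison 16 of the 31 calls were shared between the scalings, and no called member changed direction. The shares of all genes given throughout are those with TMM factors. They do not serve as a measure for the counts with library size scaling. With the neuron marker score as a covariate, 0 members passed in PBS 1 wpi, with none of its 10 calls kept. In MSC 1 wpi 1 passed, a lower plexin that was not among the 8 calls, and in IL-4 MSC 1 wpi 14 passed (4 higher, 10 lower), 8 of them among the 31. Of all genes 130, 548 and 1748 passed in these fits, against 2357, 3057 and 6330 without the covariate. The neuron score was 9.03 to 9.14 in Sham. It was 8.82 to 8.97 in PBS 1 wpi, 8.88 to 8.93 in MSC 1 wpi and 8.80 to 8.90 in IL-4 MSC 1 wpi. Since no 1 wpi library overlapped Sham, the covariate and the group cannot be told apart. A call against Sham at 1 wpi that is lost with it decides nothing about its cause. Against the Sham mice of week 1 alone 4 were higher and 2 lower in PBS 1 wpi, 6 and 7 in MSC 1 wpi, and 9 and 19 in IL-4 MSC 1 wpi.

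**Figure D2:**
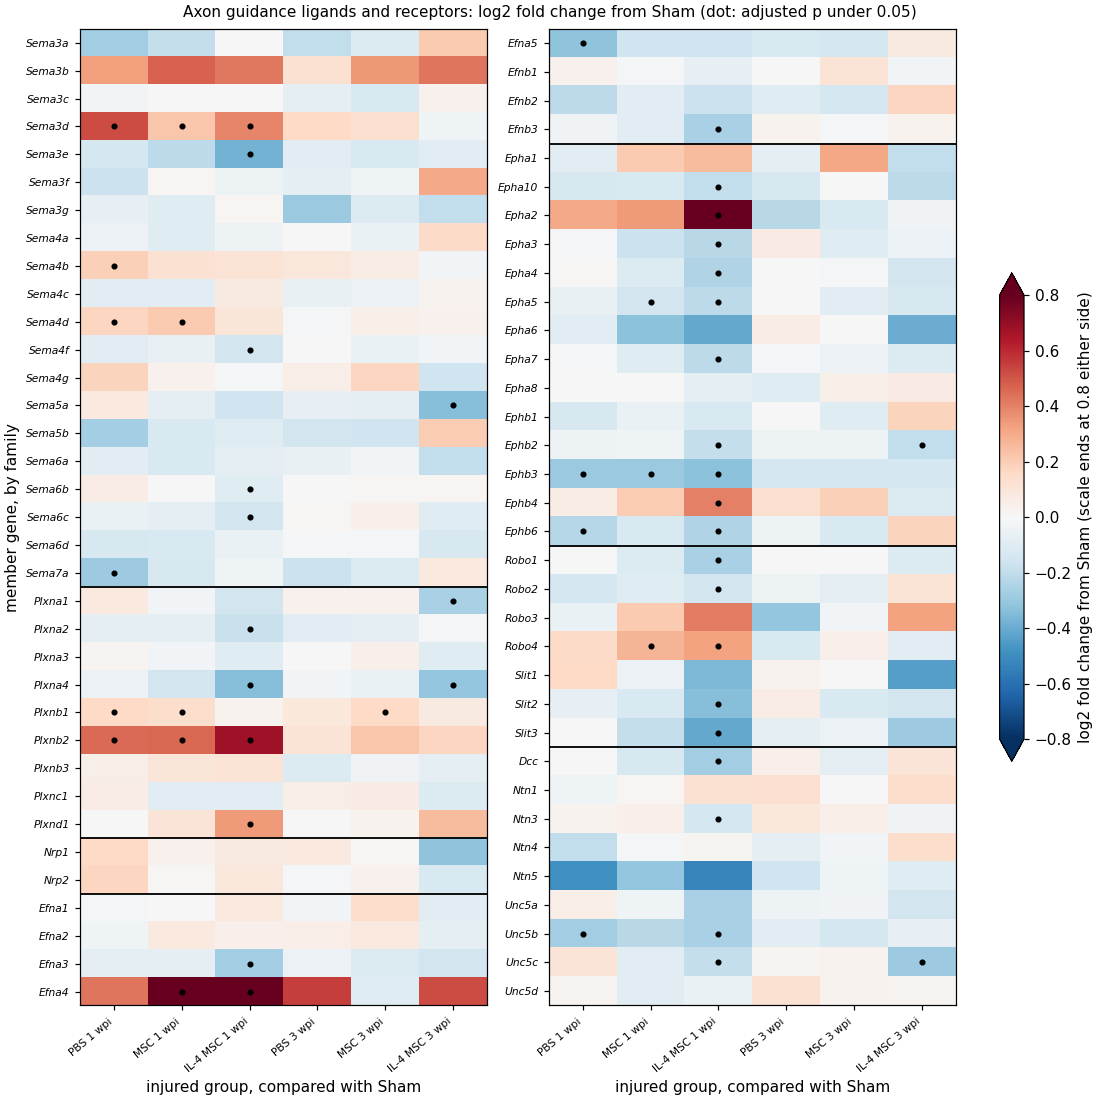
Log2 fold change from Sham of the 69 members (rows, grouped by family) in the 6 injured groups (columns), from red (higher) to blue (lower), with a dot where the adjusted p was under 0.05. The IL-4 MSC 1 wpi column holds 31 dots, 7 on higher and 24 on lower members (11 and 9 with library size scaling), and the PBS 3 wpi column holds 0.

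Among the ligands, Sema3d was higher in all 3 injured groups at 1 wpi. It encodes a secreted semaphorin that repels axons and endothelial cells. Sham replicates 1 to 5 were at 9.84, 9.68, 10.2, 9.70 and 9.12 CPM, and PBS 1 wpi replicates at 13, 15.9, 15.0, 14.7 and 13.1 CPM. MSC 1 wpi replicates were at 11.4, 11.0, 11.9, 12.6 and 11.5 CPM, and IL-4 MSC 1 wpi replicates at 15.0, 12.6, 12.9, 13.3 and 13.1 CPM. Every injured mouse at 1 wpi was above every Sham mouse, and the PBS and IL-4 MSC groups overlapped each other. The log2 fold change from Sham was 0.52 (SE 0.071, adjusted p = 2.96e-06) with PBS, 0.22 (SE 0.072, adjusted p = 0.0323) with MSC and 0.39 (SE 0.071, adjusted p = 5.47e-05) with IL-4 MSC. None of the 3 passed with the neuron covariate, at 0.33, 0.034 and 0.14. In MSC 1 wpi the call was lost without Sham replicate 2, 4 or 5 or MSC replicate 3 or 4, at an adjusted p of 0.0874 at most.

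The other ligands that were higher at 1 wpi were few. Efna4, an ephrin tethered to the membrane by a lipid anchor, was at 0.195, 0.246, 0.390, 0.217 and 0.397 CPM in Sham replicates 1 to 5 and at 0.503, 0.650, 0.436, 0.465 and 0.593 CPM in IL-4 MSC 1 wpi. MSC 1 wpi replicates were at 0.583, 0.402, 0.489, 0.580 and 0.657 CPM, and PBS 1 wpi was at 0.398 ± 0.0444 CPM. The MSC and IL-4 MSC mice were above all 5 Sham mice by narrow margins and from low counts, and the PBS mice overlapped Sham and the MSC and IL-4 MSC groups. The log2 fold change was 0.80 (SE 0.22, adjusted p = 0.00504) with IL-4 MSC and 0.85 (SE 0.22, adjusted p = 0.00637) with MSC, and that with PBS (0.43) and the differences of MSC and IL-4 MSC from PBS (0.42 and 0.37) did not pass. It was 0.55 with IL-4 MSC and 0.67 with MSC under the neuron covariate, neither of which passed. Against the Sham mice of week 1 alone it was 0.74 and 0.78 and did not pass in either. Sema4d, a transmembrane semaphorin that binds plexin B1, was higher with PBS (log2 fold change 0.17, adjusted p = 0.0293) and with MSC (0.21, adjusted p = 0.00375). Sema4b was higher with PBS only by the test (0.19, adjusted p = 0.0340), and its difference between treatments did not pass.

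Of the 20 semaphorins 1 was higher and 4 were lower after IL-4 MSC, of the 8 ephrins 1 and 2, and of the 3 Slits 0 and 2. Of all genes 18.4% were higher and 18.5% lower. Library size scaling turned the semaphorins to 4 higher and 1 lower and left the ephrins at 1 and 2. Slit2 and Slit3, secreted repellents for Robo-bearing axons, were at 55.2 ± 5.56 and 57.4 ± 10.1 CPM in Sham and at 45.9 ± 3.92 and 45.5 ± 3.85 CPM in IL-4 MSC 1 wpi, with log2 fold changes of −0.34 (adjusted p = 0.000195) and −0.41 (adjusted p = 0.0118). For Slit3 the call was lost without Sham replicate 3 or 4, and with the neuron covariate Slit2 (−0.39) and Slit3 (−0.46) did not pass. Efnb3 was at 116 ± 8 CPM in Sham and 102 ± 1.50 CPM in IL-4 MSC 1 wpi (log2 fold change −0.26, adjusted p = 0.000211). Sema3e, the secreted ligand of plexin D1, was at 50.5 ± 6.41 and 40.8 ± 2.74 CPM (−0.38, adjusted p = 0.00495). Efnb3 (−0.31) passed with the neuron covariate and Sema3e (−0.35) did not. The remaining lower ligands were Efna3, Ntn3, Sema4f, Sema6b and Sema6c, at log2 fold changes between −0.27 and −0.10, of which Efna3 alone passed with library size scaling and Sema4f changed sign with the neuron covariate (0.043). In PBS 1 wpi the lower ligands were Efna5 (−0.32, adjusted p = 0.0198) and Sema7a (−0.29, adjusted p = 0.0112), which with the neuron covariate were −0.071 and 0.041 and did not pass.

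Of the receptors, Epha2 had the largest log2 fold change among the 69 members in IL-4 MSC 1 wpi. It encodes an Eph receptor of epithelia, endothelium and proliferating cells (ENSMUSG00000006445, chr4:141301240-141329384, + strand, GRCm38). Sham replicates 1 to 5 were at 1.72, 1.78, 1.39, 1.25 and 2.35 CPM, and PBS 1 wpi replicates at 1.77, 2.43, 2.37, 2.15 and 1.97 CPM. MSC 1 wpi replicates were at 2.72, 2.10, 2.20, 1.77 and 2.29 CPM. IL-4 MSC 1 wpi replicates were at 3.99, 5.29, 4.33, 4.37 and 4.83 CPM. The IL-4 MSC mice stood clear of all other mice at 1 wpi, while the PBS, MSC and Sham groups overlapped. The log2 fold change of IL-4 MSC was 1.36 from Sham (SE 0.15, adjusted p = 1.20e-08), 1.06 from PBS (SE 0.15, adjusted p = 3.45e-06) and 1.02 from MSC (SE 0.15, adjusted p = 9.18e-06). It passed in every fit that left out 1 library.

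Plxnb2 was higher in all injured groups at 1 wpi. It encodes plexin B2 (ENSMUSG00000036606, chr15:89155549-89180788, − strand, GRCm38), a receptor for class 4 semaphorins found on neural progenitors, microglia and macrophages. Sham replicates 1 to 5 were at 74.0, 79.8, 70.5, 71.8 and 87.4 CPM, and PBS 1 wpi replicates at 101, 115, 113, 106 and 99.9 CPM. MSC 1 wpi replicates were at 115, 109, 120, 104 and 96.5 CPM, and IL-4 MSC 1 wpi replicates at 134, 133, 128, 129 and 124 CPM. The 3 injured groups did not overlap Sham, and the IL-4 MSC mice were above all mice given PBS or MSC. The log2 fold change from Sham was 0.45 (SE 0.059, adjusted p = 1.94e-06) with PBS, 0.46 (SE 0.059, adjusted p = 8.29e-07) with MSC and 0.68 (SE 0.059, adjusted p = 4.42e-11) with IL-4 MSC. With the neuron covariate the difference from Sham passed with IL-4 MSC (0.41) and not with PBS (0.23) or MSC (0.26). IL-4 MSC exceeded PBS by 0.24 (adjusted p = 0.00408) and MSC by 0.23 (adjusted p = 0.00960) on the log2 scale. Without MSC 1 wpi replicate 5, the lowest of its group, the difference between IL-4 MSC and MSC was 0.19 and did not pass (adjusted p = 0.0511).

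**Figure D3:**
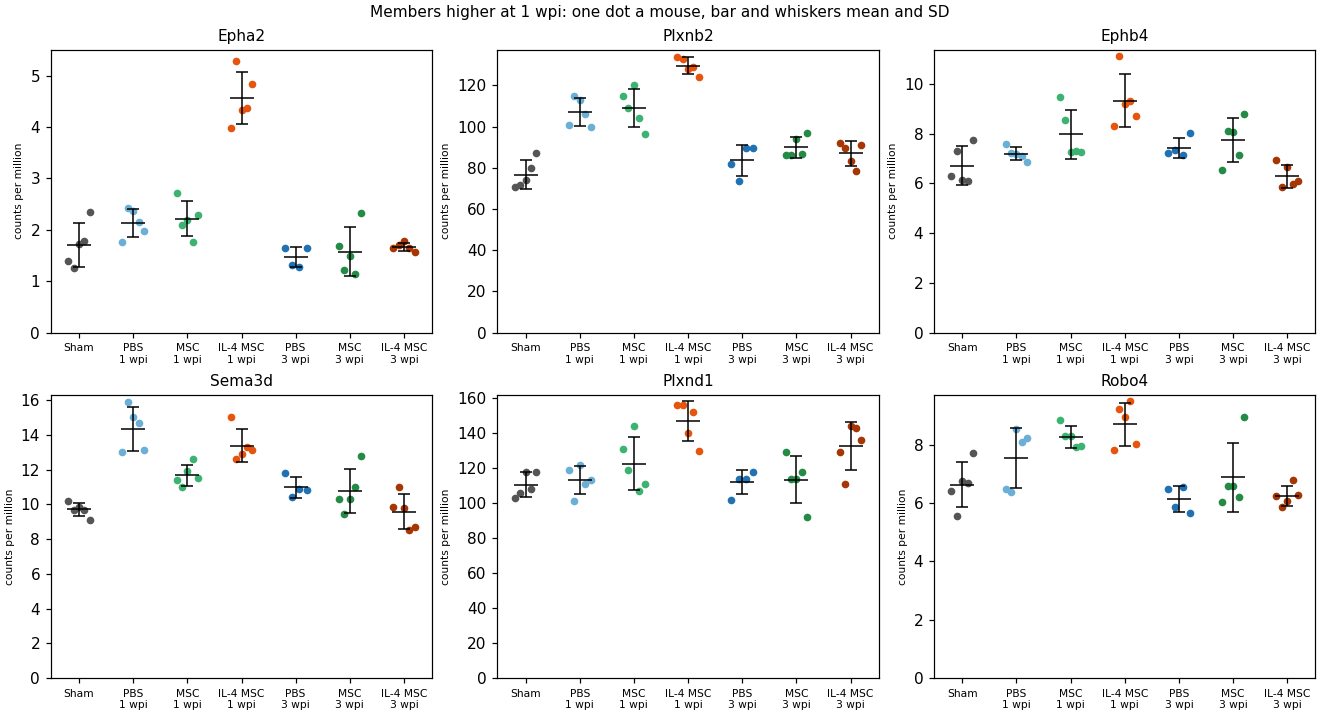
CPM of 6 members that were higher at 1 wpi, by group, with each dot 1 mouse and bar and whiskers the mean and SD. Epha2 in IL-4 MSC 1 wpi (3.99 to 5.29 CPM) lies above every other mouse, and the IL-4 MSC 3 wpi values of Epha2 and Ephb4 lie within the range of Sham or just below it.

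A further 3 receptors were higher in IL-4 MSC 1 wpi, each of them known from blood vessels. Ephb4, the venous receptor for ephrin B2, was at 6.14, 6.09, 6.29, 7.32 and 7.75 CPM in Sham replicates 1 to 5 and at 8.31, 11.1, 9.19, 9.31 and 8.69 CPM in IL-4 MSC 1 wpi, with no overlap (log2 fold change 0.40, SE 0.086, adjusted p = 0.000393). Plxnd1, the endothelial receptor for Sema3e, was at 111 ± 6.87 CPM in Sham and 147 ± 11.4 CPM in IL-4 MSC 1 wpi (0.34, adjusted p = 0.00168). Robo4, an endothelial Robo, was at 6.62 ± 0.775 and 8.70 ± 0.748 CPM (0.32, adjusted p = 0.00693), and passed in MSC 1 wpi as well (0.27, adjusted p = 0.0422). With the neuron covariate the differences of Ephb4 (0.38) and Robo4 (0.42) in IL-4 MSC 1 wpi did not pass, and that of Plxnd1 (0.59) did. In MSC 1 wpi the Robo4 call was lost without any of Sham replicates 1 to 4 or MSC replicates 1, 2, 3 and 5, with an adjusted p of 0.145 at most. Plxnb1, the receptor for Sema4d, passed with PBS (0.16, adjusted p = 0.00539) and MSC (0.14, adjusted p = 0.00815), and in IL-4 MSC 1 wpi it was below PBS 1 wpi (−0.13, adjusted p = 0.0192). The last call was lost without IL-4 MSC replicate 1, 4 or 5 or PBS replicate 2 or 3, with an adjusted p of 0.157 at most.

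The balance among the receptors in IL-4 MSC 1 wpi depended on the scaling. Of the 14 Eph receptors 2 were higher and 8 lower, of the 9 plexins 2 and 2, of the 4 Robo receptors 1 and 2, and of Dcc and the 4 Unc5 receptors 0 and 3, with 0 of the 2 neuropilins in either direction. Of all genes 18.4% were higher and 18.5% lower. With library size scaling the Eph receptors stood at 2 higher and 2 lower, the plexins at 2 and 1, and the netrins, Dcc and Unc5 receptors at 0 and 0, with 3 of those 9 at an unadjusted p under 0.05. The lower Eph receptors were Epha3, Epha4, Epha5, Epha7, Epha10, Ephb2, Ephb3 and Ephb6, at log2 fold changes from −0.33 for Ephb3 to −0.19 for Ephb2. With the neuron covariate Epha5 alone of these 8 passed, and Ephb6 (0.13) and Epha10 (0.051) changed sign, as did Robo2 (0.076) and Plxna2 (0.021). Plxna4, a receptor for class 3 and class 6 semaphorins, fell by 0.34 on the log2 scale (adjusted p = 0.00125), Robo1 by 0.26 (adjusted p = 0.000230) and Dcc, the attractive netrin receptor, by 0.28 (adjusted p = 0.0145, and 0.0746 with library size scaling). Plxna4 (−0.47) and Robo1 (−0.37) passed with the neuron covariate and Dcc (−0.14) did not. Ephb3 was also lower with PBS (−0.30, adjusted p = 0.0110) and with MSC (−0.30, adjusted p = 0.00897). Neither neuropilin ranked clearly above the other, with Nrp1 at 23.8 ± 5.64 TPM and Nrp2 at 22.6 ± 1.27 TPM in Sham. Nrp2, the one with the higher mean CPM, was at 72.9, 64.9, 71.3, 75.1 and 71.3 CPM in Sham replicates 1 to 5 and at 88.5, 75.9, 78.9, 84.6 and 71.0 CPM in IL-4 MSC 1 wpi. These values overlap, and the difference did not pass. With the striatum score as covariate 1 of the 2 neuropilins was higher in IL-4 MSC 1 wpi, against Sham and against PBS 1 wpi.

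Leaving out each of the 10 libraries of IL-4 MSC 1 wpi against Sham in turn gave 20 to 30 called members in place of 31, with the count of 20 found without Sham replicate 3. In all 10 fits 17 members passed, namely Efna3, Efna4, Efnb3, Epha2, Epha5, Ephb3, Ephb4, Plxna2, Plxna4, Plxnb2, Plxnd1, Robo1, Robo4, Sema3d, Sema3e, Sema4f and Slit2. The other 14 were lost in at least 1 fit, most often without Sham replicate 1 (11 lost) or Sham replicate 3 (11 lost), among them Dcc, which was lost without Sham replicate 3 or 4 or IL-4 MSC replicate 2 or 3. For PBS 1 wpi the count of 10 became 6 without Sham replicate 1, 5 without PBS replicate 2 and 6 without PBS replicate 3, and Plxnb1, Plxnb2 and Sema3d passed in every fit. Efna5 was lost without Sham replicate 1, 2 or 5 or PBS replicate 2 or 3, Sema7a without Sham replicate 1 or PBS replicate 2, and Ephb3 without PBS replicate 2. Sema4b was lost in 8 of the 10 fits, all but those without Sham replicate 4 or PBS replicate 1, and Sema4d with PBS was lost without Sham replicate 3 or 4 or PBS replicate 1, 3 or 4.

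Marker genes of other cell types and regions moved with these comparisons. All 8 macrophage markers were higher in IL-4 MSC 1 wpi than in Sham, and their summed level was 505, 437, 415, 463 and 332 CPM in replicates 1 to 5 against 15.4 to 30.6 CPM in Sham, 46.8 to 87.7 CPM in PBS 1 wpi and 55.2 to 101 CPM in MSC 1 wpi. Lyz2 was the most abundant of them by its mean, and no macrophage marker was at 0 in any library. Of 8 endothelial markers 6 were higher than in Sham and 8 higher than in PBS 1 wpi or MSC 1 wpi, with sums of 318, 362, 314, 304 and 285 CPM against 207 to 236 CPM in Sham and Flt1 the most abundant. Of 12 neuron markers 10 were lower than in Sham, at sums of 7480, 7430, 7610, 7570 and 7930 CPM against 8330 to 8950 CPM, with Snap25 the most abundant. Astrocyte markers were higher for 5, 5 and 6 of 8 with PBS, MSC and IL-4 MSC, fibroblast markers for 2, 3 and 4 of 6 (1 was lower with IL-4 MSC), and T cell markers for 0, 0 and 3 of 5. The summed fibroblast markers were at 84.0 ± 22.1 CPM in Sham, 127 ± 32.0 CPM in PBS 1 wpi, 374 ± 162 CPM in MSC 1 wpi and 322 ± 41.8 CPM in IL-4 MSC 1 wpi, with Col1a2 the most abundant and 0 of the 6 genes at 0 in any library. In PBS 1 wpi and MSC 1 wpi 5 neuron markers were lower, and microglia markers were higher for 7 of 8 in each injured group at 1 wpi. None of the 69 members is on a marker list. The part of these cell types in the members' changes was not tested beyond the neuron covariate. That score did not overlap between Sham and the groups at 1 wpi, so the covariate cannot decide it.

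Between treatments at 1 wpi, IL-4 MSC was compared with PBS and with MSC. The IL-4 MSC were transfected cells, and no group sequenced here received cells transfected with another mRNA. The interleukin-4 mRNA and the transfection itself therefore cannot be told apart in any comparison with IL-4 MSC. IL-4 MSC against PBS gave 5 higher members (11.2% of all genes) and 15 lower (6.16%), and 6 and 8 with library size scaling. The members' median was −0.072, and that of all genes −0.004. The higher members were Epha2, Ephb4, Plxnb2, Plxnd1 and Sema7a. All 3 Slits were lower, Slit1 by 0.52 (adjusted p = 0.0214), Slit2 by 0.27 (adjusted p = 0.00518) and Slit3 by 0.41 (adjusted p = 0.0250) on the log2 scale, together with their receptor Robo1 by 0.26 (adjusted p = 0.000701). Without PBS replicate 3, IL-4 MSC replicate 2 or IL-4 MSC replicate 3 the count of 20 became 12 in each case, and Slit1 and Slit3 were then lost. Slit1 and Slit3 were lost without PBS replicate 5 too, Slit3 also without IL-4 MSC replicate 4, and Sema7a without PBS replicate 2, while Slit2 and Robo1 passed in every fit. With the striatum score as covariate 5 members were higher and 9 lower, and with the neuron score 8 and 18. The 5 higher with the striatum covariate were not the same 5, as Sema7a (0.17) did not pass and 1 neuropilin did. Slit3 (−0.21) did not pass with it either, while Slit1 (−0.24), Slit2 (−0.19) and Robo1 (−0.22) did. The striatum scores in IL-4 MSC 1 wpi (4.34 to 5.37) lay above those in PBS 1 wpi (3.71 to 4.31). The hippocampus scores lay below (3.35 to 3.62 against 3.74 to 4.21). The part of these regions in the members' differences was not tested beyond the striatum covariate.

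IL-4 MSC against MSC at 1 wpi gave 2 higher members, Epha2 and Plxnb2 (7.66% of all genes were higher), and 3 lower, Efnb3, Ntn3 and Slit2 (1.03% lower), with 3 and 1 under library size scaling. The lower members were small differences, of −0.17, −0.18 and −0.22 (adjusted p = 0.0383, 0.0145 and 0.0408). Without MSC replicate 2, 4 or 5 the count fell to 2, and without IL-4 MSC replicate 1, 2, 3 or 4 to 3. Epha2 alone passed in every fit. Efnb3 was lost in 9 of the 10 fits, all but that without MSC replicate 1 (adjusted p at most 0.243), Ntn3 without IL-4 MSC replicate 1 or MSC replicate 2, 3 or 4 (at most 0.107), and Slit2 in all fits but those without IL-4 MSC replicate 1 or MSC replicate 3 (at most 0.197). MSC against PBS at 1 wpi gave 0 members by edgeR, 6 at an unadjusted p under 0.05 and 1 by DESeq2, and 0.123% of all genes passed.

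The 69 genes of a separate list of downstream signalling components, which shares no gene with the members, were counted in the same way. In IL-4 MSC 1 wpi against Sham 13 were higher and 28 lower (18.4% and 18.5% of all genes), and 18 and 13 with library size scaling. In PBS 1 wpi 8 were higher and 7 lower (8.73% and 5.03% of all genes), 10 and 4 with library size scaling and 8 and 12 by DESeq2, and in MSC 1 wpi 10 and 12 (11.0% and 6.89%), or 13 and 3 with library size scaling. Without PBS replicate 2 the PBS count of 15 became 9, and without Sham replicate 1 the MSC count of 22 became 12. Among those with the smallest adjusted p in IL-4 MSC 1 wpi was Fes, a cytoplasmic kinase that binds plexin A1, at 4.61 ± 0.925 CPM in Sham and 15.3 ± 1.56 CPM (log2 fold change 1.66, adjusted p = 2.42e-11). The protease Adam10, which cuts ephrins, was higher by 0.29 (adjusted p = 5.50e-10) and Rras, a target of plexin GAP activity, by 0.71 (adjusted p = 2.19e-08). Rhoa (0.31, adjusted p = 2.58e-10) and Rac2 (1.80, adjusted p = 1.68e-09) were higher as well, and Rock2 was lower (−0.23, adjusted p = 1.01e-06). Of these genes Rock2 alone was lower, whereas 28 of the 41 calls in the list were lower, so that they do not stand for the list. At 3 wpi 0, 0 and 5 of the 69 passed against Sham with PBS, MSC and IL-4 MSC by edgeR, where 0.0292% and 1.15% of all genes passed with PBS and MSC and 2.76% were higher and 1.52% lower with IL-4 MSC, with 1, 5 and 20 at an unadjusted p under 0.05 and 0, 1 and 6 by DESeq2. The MSC count of 0 became 2 without Sham replicate 5 and 1 without MSC replicate 1, 3 or 4. The IL-4 MSC count of 5, of which 1 was higher and 4 lower (2 and 3 with library size scaling), became 0 without the 4 high-striatum libraries, 11 without replicate 2, 3 without replicate 3 or 4, and 2 without replicate 5, Sham replicate 3 or Sham replicate 4.

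By 3 wpi few members differed from Sham. In PBS 3 wpi 0 of 69 passed by edgeR and 0 by DESeq2, with 5 at an unadjusted p under 0.05, and 0.0292% of all genes passed. In MSC 3 wpi Plxnb1 alone was higher (log2 fold change 0.16, adjusted p = 0.0309), where 1.15% of all genes passed. Its call was lost without any 1 of the 5 Sham mice or of MSC replicates 1, 4 and 5, with an adjusted p of up to 0.212. In IL-4 MSC 3 wpi 0 members were higher (2.76% of all genes) and 5 lower (1.52%), namely Ephb2, Plxna1, Plxna4, Sema5a and Unc5c. Against the Sham mice of week 3 alone, and in a fit of only these groups, 0 of the 69 passed, with the 5 at log2 fold changes of −0.38 to −0.18 and −0.34 to −0.20. The members' median was −0.066 and that of all genes 0.010, and 23 members were at an unadjusted p under 0.05.

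Unc5c, a netrin receptor that turns attraction into repulsion (ENSMUSG00000059921, chr3:141465216-141834924, + strand, GRCm38), had the smallest adjusted p at 3 wpi. Sham replicates 1 to 5 were at 64.5, 66.9, 75.9, 65.7 and 63.3 CPM, and PBS 3 wpi replicates 1 to 4 at 68.3, 64.1, 74.2 and 69.6 CPM. MSC 3 wpi replicates were at 69.6, 70.8, 70.0, 67.4 and 68.8 CPM, and IL-4 MSC 3 wpi replicates at 58.4, 68.9, 55.3, 47.5 and 48.0 CPM. IL-4 MSC replicate 2 sat among the other groups, and replicates 1, 3, 4 and 5 were below every mouse of Sham, PBS and MSC. The log2 fold change was −0.29 from Sham (SE 0.069, adjusted p = 0.0145), −0.31 from PBS (SE 0.072, adjusted p = 0.0161) and −0.32 from MSC (SE 0.069, adjusted p = 0.00922). With the 4 high-striatum libraries left out, a choice made after seeing the data, these became 0.009, −0.008 and −0.015, none of which passed.

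Plxna1, a receptor that signals for neuropilins and class 6 semaphorins, had the same 4 mice low. Sham replicates 1 to 5 were at 148, 147, 173, 170 and 153 CPM, PBS 3 wpi replicates 1 to 4 at 164, 177, 166 and 150 CPM and MSC 3 wpi replicates at 161, 175, 156, 146 and 180 CPM. IL-4 MSC 3 wpi replicates were at 129, 162, 123, 125 and 125 CPM, of which replicate 2 alone overlaps the other groups. The log2 fold change was −0.26 from Sham (SE 0.078, adjusted p = 0.0492), −0.30 from PBS (SE 0.083, adjusted p = 0.0394) and −0.30 from MSC (SE 0.078, adjusted p = 0.0304). Without the 4 high-striatum libraries it was 0.011, −0.024 and −0.018. With library size scaling the difference from Sham did not pass (adjusted p = 0.0545).

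IL-4 MSC against PBS at 3 wpi gave 0 higher and 2 lower members, Plxna1 and Unc5c, where 2.94% of all genes passed, and DESeq2 gave 2 higher and 3 lower. Without the 2 libraries low in choroid plexus markers 2 members were higher and 1 lower, and the Plxna1 call was lost. IL-4 MSC against MSC gave 5 higher (2.29% of all genes) and 2 lower (1.18%), and DESeq2 gave 5 and 6. MSC against PBS gave 0 by edgeR, 0 by DESeq2 and 4 at an unadjusted p under 0.05, with 0.0817% of all genes passing.

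The 5 members higher in IL-4 MSC 3 wpi than in MSC 3 wpi were the receptors Ephb6, Ephb1 and Robo2 and the ligands Sema5b and Efnb2. Ephb6, an Eph receptor without kinase activity, was at 86.5, 76.6, 78.9, 86.9 and 81.6 CPM in MSC 3 wpi replicates 1 to 5 and at 92.9, 90.1, 104, 107 and 109 CPM in IL-4 MSC 3 wpi, with no overlap (log2 fold change 0.30, SE 0.071, adjusted p = 0.0164). Ephb1, a receptor for ephrin B ligands at the optic chiasm, was at 41.9, 45.4, 42, 46.6 and 35.0 CPM and at 55.4, 42, 49.4, 54.4 and 52.5 CPM (0.27, SE 0.070, adjusted p = 0.0273). Without the 4 high-striatum libraries these were 0.13 and −0.013. For Ephb1 the overlap between the groups came from IL-4 MSC replicate 2. Robo2, a Slit receptor, was at 122, 127, 123, 126 and 120 CPM in MSC 3 wpi and 139, 125, 145, 150 and 142 CPM in IL-4 MSC 3 wpi (0.19, SE 0.049, adjusted p = 0.0292). Sema5b, a transmembrane semaphorin, was at 19.8, 17.5, 19.0, 22.1 and 16.8 CPM and at 25.1, 17.7, 25.0, 30.2 and 23.8 CPM (0.36, SE 0.098, adjusted p = 0.0334). Without the 4 libraries Robo2 was 0.016 and Sema5b −0.11. In both genes replicate 2 was the lowest of the IL-4 MSC mice and the other 4 were above all MSC mice. Efnb2, the ligand of Ephb4, was at 51.2, 54.5, 50.5, 55.7 and 52.7 CPM and at 63.6, 50.4, 61.2, 85.7 and 64.2 CPM (0.30, SE 0.082, adjusted p = 0.0345). Its IL-4 MSC replicate 2 was below every MSC mouse and the other 4 above them, and without the 4 libraries the difference was −0.075.

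These 3 wpi counts rested on single libraries. Against Sham the count of 5 became 14 without IL-4 MSC replicate 2, 0 without replicate 4 or 5, 1 without replicate 1 or Sham replicate 3, 2 without Sham replicate 4 and 3 without replicate 3 or Sham replicate 1. Against PBS the count of 2 became 22 without IL-4 MSC replicate 2, 0 without IL-4 MSC replicate 4 or 5 or PBS replicate 1 or 3, and 1 without IL-4 MSC replicate 1 or 3. Against MSC the count of 7 became 20 without IL-4 MSC replicate 2, 0 without replicate 4, 1 without replicate 5, 3 without MSC replicate 2 or 3 and 2 without MSC replicate 5. No member passed in every fit of these comparisons. With the 4 high-striatum libraries left out, or with the striatum score as a covariate, all 3 counts were 0, and the 1 library then left in IL-4 MSC 3 wpi is assumed to vary like the other groups. At an unadjusted p under 0.05 with all libraries in, 23, 25 and 29 members stood in the 3 comparisons.

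The striatum markers moved with the same comparisons, 9 of 12 being higher in IL-4 MSC 3 wpi than in Sham, 11 than in PBS 3 wpi and 10 than in MSC 3 wpi, at median log2 fold changes of 1.54, 2.12 and 1.83. Of 7 hippocampus markers 2 were lower than in Sham and 0 in the other comparisons, and of 6 thalamus markers 0 passed in any of the 3. Of 8 cortex markers 0 passed in these comparisons by edgeR. T cell markers were higher than in Sham for 0, 3 and 4 of 5 in PBS, MSC and IL-4 MSC 3 wpi, at a mean log2 CPM of −1.22 ± 0.23 in Sham, −1.03 ± 0.18, 0.37 ± 0.27 and 0.62 ± 0.32. Their sum in IL-4 MSC 3 wpi replicates 1 to 5 was 15.8, 7.35, 17.3, 22.4 and 20.1 CPM against 2.33 to 7.65 CPM in Sham, with Cd4 the most abundant at 11.9 ± 6.45 of the mean sum of 16.6 CPM, and 2 of the 5 genes at 0 in a Sham library. In MSC 3 wpi the sum was 8.08 ± 1.16 CPM with Cd4 at 2.37 ± 1.2 CPM, and the striatum score 4.36 ± 0.68. Microglia markers were higher for 0, 1 and 4 of 8, with a mean log2 CPM of 4.57 ± 0.11 in Sham and 4.82 ± 0.07 in IL-4 MSC 3 wpi. In these libraries the IL-4 MSC 3 wpi group and the striatum markers move together, and the part of the T cell and microglia markers in the members' values was not tested.

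From 1 to 3 wpi within a treatment, 2 members were lower with PBS, Plxnb2 and Sema3d, where 5.51% of all genes passed. With MSC 2 were lower, Efna4 and Plxnb2, where 6.15% passed. With IL-4 MSC 15 were higher (16.4% of all genes) and 7 lower (16.6%), and 6 and 10 under library size scaling. The members' median was 0.043 and that of all genes 0.025. The 7 lower members were Epha2, Ephb4, Plxnb2, Robo4, Sema3d, Nrp2 and Sema3g. Epha2 in IL-4 MSC 3 wpi replicates 1 to 5 was at 1.65, 1.70, 1.79, 1.64 and 1.57 CPM, all below every IL-4 MSC 1 wpi mouse and within the range of Sham (log2 fold change −1.39, adjusted p = 1.13e-08). Plxnb2 was at 92.1, 89.8, 83.2, 78.4 and 91.3 CPM, again below every IL-4 MSC mouse of week 1 and overlapping Sham at its upper end (−0.51, adjusted p = 2.45e-08). Dcc was the member with the most positive called difference apart from Ephb6, at 34.3 ± 3.73 CPM in week 1 and 42.7 ± 5.56 CPM in week 3 (0.38, adjusted p = 0.00123). Its IL-4 MSC 3 wpi replicates 1 to 5 were at 43.0, 37.6, 37.0, 50.1 and 45.9 CPM, replicate 2 being the library not high in striatum markers. With the neuron covariate the Dcc call was lost. Without the 4 high-striatum libraries 4 members passed in place of 22. The count was 12 without IL-4 MSC 1 wpi replicate 2 and 14 without IL-4 MSC 1 wpi replicate 4 or IL-4 MSC 3 wpi replicate 3, and Nrp2 was lost without IL-4 MSC 1 wpi replicate 1 or IL-4 MSC 3 wpi replicate 3 or 5, Sema3g without IL-4 MSC 1 wpi replicate 2, 3, 4 or 5 or IL-4 MSC 3 wpi replicate 2 or 5. For MSC the count of 2 became 4 without MSC 3 wpi replicate 5. With the neuron covariate 0 members passed with PBS. With MSC 1 higher plexin passed and neither of the 2 calls, and with IL-4 MSC 1 member was higher and 3 lower. In IL-4 MSC the summed macrophage markers went from 430 ± 64.3 to 41.4 ± 14.4 CPM between the weeks. The endothelial markers went from 317 ± 28.3 to 207 ± 11.3 CPM, and the neuron markers from 7600 ± 198 to 8410 ± 200 CPM. Their part was not tested beyond the neuron covariate. In IL-4 MSC its score did not overlap between the weeks (8.80 to 8.90 at 1 wpi and 8.95 to 9.11 at 3 wpi), so the covariate cannot decide it.

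Whether a treatment's difference itself changed between the weeks was tested as an interaction. For IL-4 MSC against PBS 3 members passed, where 4.72% of all genes did, with Epha2 (−0.86, SE 0.23, adjusted p = 0.0215) and Ephb4 (−0.57, SE 0.13, adjusted p = 0.00521) falling from week 1 to week 3 and Sema6b, a transmembrane semaphorin that binds plexin A4, rising (0.18, SE 0.053, adjusted p = 0.0413). Under library size scaling 0 were higher and 2 lower, with Sema6b not passing. Without the 4 high-striatum libraries 0 passed (Ephb4 −0.71, Sema6b 0.19), and with the neuron covariate Ephb4 alone did (−0.56), Epha2 being at −0.83. Ephb4 in IL-4 MSC 3 wpi replicates 1 to 5 was at 6.92, 5.84, 6.64, 5.96 and 6.10 CPM, and in PBS 3 wpi replicates 1 to 4 at 7.24, 7.34, 7.14 and 8.03 CPM. The IL-4 MSC mice were thus the higher ones in week 1 and the lower ones in week 3, with no overlap in either week (PBS 1 wpi at 7.60, 7.22, 7.20, 7.11 and 6.84 CPM). Sema6b was at 129, 137, 144, 142 and 136 CPM in PBS 1 wpi and 123, 124, 125, 125 and 130 CPM in IL-4 MSC 1 wpi, and at 122, 134, 135 and 127 CPM in PBS 3 wpi and 125, 134, 132, 131 and 134 CPM in IL-4 MSC 3 wpi. In week 1 the groups overlapped by 1 mouse on each side, and in week 3 throughout. The Epha2 interaction was lost without PBS 3 wpi replicate 1 or 4 (adjusted p = 0.0593 and 0.0555), each leaving 1 member in all, and that of Sema6b was lost in all fits but those without PBS 1 wpi replicate 1, PBS 3 wpi replicate 2 or 3, IL-4 MSC 1 wpi replicate 5 or IL-4 MSC 3 wpi replicate 1.

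For IL-4 MSC against MSC 8 members passed the interaction, 4 positive and 4 negative, where 7.86% of all genes did. The negative ones were Epha2 (−0.93, adjusted p = 0.00668), Ephb4 (−0.50, adjusted p = 0.00904), Sema3d (−0.34, adjusted p = 0.0338) and Plxnb2 (−0.27, adjusted p = 0.0387). The positive ones were Ephb6 (0.41, adjusted p = 0.00866), Efnb2 (0.38, adjusted p = 0.0361), Ephb1 (0.34, adjusted p = 0.0311) and Robo2 (0.24, adjusted p = 0.0291). Epha2, Ephb4 and Ephb6 passed in all 20 fits that left out 1 library, and with the neuron covariate they were −0.89, −0.49 and 0.23 and 0 of the 8 passed. The count became 13 without IL-4 MSC 3 wpi replicate 2, 3 without IL-4 MSC 3 wpi replicate 4 or MSC 3 wpi replicate 5, 4 without MSC 1 wpi replicate 2, IL-4 MSC 1 wpi replicate 1 or 2 or IL-4 MSC 3 wpi replicate 5, and 5 without MSC 1 wpi replicate 3, MSC 3 wpi replicate 1, IL-4 MSC 1 wpi replicate 5 or IL-4 MSC 3 wpi replicate 3. Efnb2 passed in 7 of the 20 fits, Ephb1 in 7, Robo2 in 10, Plxnb2 in 12 and Sema3d in 14, and the members so lost had an adjusted p of 0.112 at most. Without the 4 high-striatum libraries the interaction was −0.93 for Epha2 and −0.63 for Ephb4, neither of which passed with 1 library left, and −0.007 for Efnb2. The endothelial markers, 8 of 8 against PBS and 6 of 8 against MSC, and the macrophage markers, 5 and 6 of 8, passed the same interactions with a negative sign, and their part in the members' interactions was not tested.

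Since 5 receptors were higher together in IL-4 MSC 1 wpi, the 250 bases upstream of their annotated starts are shown, from RefSeq on GRCm38.p6, each 5′ to 3′ on the gene's strand. They lie at chr4:141300971-141301220 (+) for Epha2, chr5:137349859-137350108 (+) for Ephb4, chr15:89180789-89181038 (−) for Plxnb2, chr6:115995006-115995255 (−) for Plxnd1 and chr9:37401722-37401971 (+) for Robo4. The GENCODE starts used for positions elsewhere differ for 2 of them, so that the Robo4 window runs past its GENCODE start at 37401897 into the gene, and the Epha2 window ends short of its start at 141301240. Capitals mark GGGCGG, the GC box, on either strand.
Epha2: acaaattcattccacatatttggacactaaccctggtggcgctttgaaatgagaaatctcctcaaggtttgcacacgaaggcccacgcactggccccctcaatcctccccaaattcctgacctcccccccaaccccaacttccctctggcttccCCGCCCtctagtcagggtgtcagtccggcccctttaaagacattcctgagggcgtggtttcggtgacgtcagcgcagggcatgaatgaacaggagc
Ephb4: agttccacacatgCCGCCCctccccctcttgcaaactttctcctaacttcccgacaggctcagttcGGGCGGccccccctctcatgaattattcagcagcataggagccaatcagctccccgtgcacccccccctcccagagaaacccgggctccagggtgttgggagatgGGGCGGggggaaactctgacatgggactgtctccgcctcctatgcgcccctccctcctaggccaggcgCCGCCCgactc
Plxnb2: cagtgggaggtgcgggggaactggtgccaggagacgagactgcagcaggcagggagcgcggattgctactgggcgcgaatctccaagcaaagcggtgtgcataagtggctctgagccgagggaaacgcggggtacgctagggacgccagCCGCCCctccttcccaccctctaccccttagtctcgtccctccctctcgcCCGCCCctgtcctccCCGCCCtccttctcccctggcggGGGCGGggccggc
Plxnd1: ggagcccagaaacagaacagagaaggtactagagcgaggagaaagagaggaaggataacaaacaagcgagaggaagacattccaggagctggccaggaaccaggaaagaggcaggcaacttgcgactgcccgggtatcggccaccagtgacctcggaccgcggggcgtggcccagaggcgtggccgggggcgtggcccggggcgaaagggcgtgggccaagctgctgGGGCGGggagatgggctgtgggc
Robo4: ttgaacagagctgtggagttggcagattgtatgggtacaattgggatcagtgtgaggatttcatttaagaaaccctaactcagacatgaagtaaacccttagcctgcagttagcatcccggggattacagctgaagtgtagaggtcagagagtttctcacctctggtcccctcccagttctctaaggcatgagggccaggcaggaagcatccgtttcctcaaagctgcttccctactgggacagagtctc

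Of the 69 members 59 had at least 1 upstream sequence. GGGCGG was found on either strand in 44 of the 59 and in 32.7% of all 32851 upstream sequences of the same length. A member was counted if any of its upstream sequences held the motif, while the percentage is per sequence. For this and the other motifs the 2 figures are unlike measures, and no excess in the members can be read from them. It occurred 1 time in Epha2 and Plxnd1, 4 times in Ephb4 and Plxnb2 and 0 times in Robo4. The motifs TTCNNNGAA (2 of 59 members, 7.02% of all sequences), TGANTCA (3 of 59, 6.75%) and GAGGAAGT (0 of 59, 2.44%), each searched on both strands, had 0 matches in the 5 receptors, as did a motif of 10 bases, not spelled here, found in 5 of 59 members and 5.85% of all sequences. A match is a run of letters in this window only and says nothing of binding.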

How the data were processed

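Bulk RNA was sequenced by the authors as 50 base reads, which were trimmed with cutadapt 2.4, checked with FastQC 0.11.8 and quantified with kallisto 0.46 on protein-coding transcripts of GENCODE M23 (GRCm38), with sleuth 0.30 in R 3.6.1. The expected counts and the TPM were computed by the authors with kallisto, summed per gene, and deposited without further normalization of the counts. Its columns of the authors' own comparisons hold p-values, q-values and log fold changes and were not used. Columns that match no sample numbered 0, and 1 PBS library of 3 wpi named by the study is not analysed here.

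Expected counts were rounded to whole numbers. CPM were computed with the plain library total, and fold changes with edgeR 4.0.16 (R 4.3.3, limma 3.58.1), filterByExpr at a minimum count of 10, TMM factors and the quasi-likelihood test in 1 fit of the 7 groups and 34 libraries, Benjamini-Hochberg over 17131 genes. The steps were tested on simulated data. Marker scores are means of log2 CPM with a prior count of 2. Replicate pairs within a group (66) differed by more than counting noise, so that no library was taken as a repeat. Alternatives were DESeq2 1.42.0, library size only, no filter, Sham of the same week, neuron or striatum score as covariate, only the groups compared, a replicate block and each library left out, and, chosen after seeing the data, leaving out the 4 high-striatum libraries or the 2 libraries low in choroid plexus markers. Gene positions are from GENCODE M21. Figures were drawn with matplotlib 3.10.9.

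Members, marker lists and the signalling list were chosen with earlier results of these data known. Members shown mouse by mouse were, by rule, those called in IL-4 MSC 1 wpi against Sham with an absolute log2 fold change of at least 0.5 (at most 3 per family), the 6 smallest adjusted p among calls between treatments at 3 wpi, those passing an interaction, and, in a family with none of these, the member with the highest mean CPM (Nrp2), a ranking that transcript length affects. Robo4, Plxnd1 and the promoters were chosen after their values were seen.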

Additional observations from a re-analysis of the deposited data

Results flagged for a closer look

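In 3 of 98 groups of values (14 members in 7 groups), 1 mouse stood far from the others of its group. Unc5c in Sham replicate 3 was at 75.9 CPM against 63.3 to 66.9 CPM in the other 4, a gap of 0.719 of the group's range. Plxna1 in IL-4 MSC 3 wpi replicate 2 was at 162 CPM against 123 to 129 CPM (0.84 of the range), and this is the library of that group with the low striatum markers. Nrp2 in MSC 3 wpi replicate 2 was at 84.5 CPM against 69.6 to 72.1 CPM (0.835). Chance flags about 1 in 20 groups.

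The difference between treatments changed from week 1 to week 3 by an edgeR interaction test for 3 members against PBS and 8 against MSC. Against PBS the log2 change was −0.86 for Epha2, −0.57 for Ephb4 and 0.18 for Sema6b. Against MSC it was −0.93 for Epha2, −0.50 for Ephb4, −0.34 for Sema3d, −0.27 for Plxnb2, 0.41 for Ephb6, 0.38 for Efnb2, 0.34 for Ephb1 and 0.24 for Robo2. Without the 4 IL-4 MSC 3 wpi libraries high in striatum markers the positive ones became 0.23, −0.007, 0.040 and 0.053 in that order. In the same fit Epha2 stayed at −0.93 against MSC and Ephb4 stayed negative. The cause was not tested.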

How the results depend on the processing

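Counts of members passing are given in the order main, then alternative. The neuron score did not overlap between Sham and the 1 wpi groups, so calls lost there with it decide nothing about their cause. With the neuron score as covariate they went from 10 to 0 (PBS 1 wpi against Sham), 8 to 1 (MSC 1 wpi, a lower plexin not among the 8), 31 to 14 (IL-4 MSC 1 wpi), 1 to 0 (MSC 3 wpi) and 5 to 8 (IL-4 MSC 3 wpi, from 0 higher and 5 lower to 3 and 5). Between treatments they went from 5 to 3 (IL-4 MSC against MSC, 1 wpi), 2 to 1 (IL-4 MSC against PBS, 3 wpi) and 7 to 1 (IL-4 MSC against MSC, 3 wpi, a lower Eph receptor not among the 7). For IL-4 MSC against PBS at 1 wpi they rose, from 5 higher and 15 lower to 8 and 18. Over time they went from 2 to 0 with PBS, 2 to 1 with MSC (a higher plexin where both calls were lower, and neither kept) and 22 to 4 with IL-4 MSC, and the week differences from 3 to 1 (PBS) and 8 to 0 (MSC). With the striatum score as covariate IL-4 MSC 3 wpi went to 0 against Sham, PBS and MSC, MSC 3 wpi to 2 and the week difference against PBS to 5. Against Sham of the same week the counts were 6 (PBS 1 wpi), 13 (MSC 1 wpi), 0 (MSC 3 wpi) and 0 (IL-4 MSC 3 wpi). DESeq2 gave 2 for MSC 3 wpi, 1 for MSC against PBS at 1 wpi, and 5 and 11 for IL-4 MSC against PBS and MSC at 3 wpi. Library size only gave 20 for IL-4 MSC 1 wpi, and no filter gave 3 for IL-4 MSC 3 wpi. Fitting only the groups compared gave 0 for MSC 3 wpi and for IL-4 MSC 3 wpi against Sham, PBS and MSC, and 5 for the week difference against MSC. Leaving out the 4 high-striatum libraries gave 0 against Sham, PBS and MSC, 4 over time and 0 for both week differences. Leaving out the 2 libraries low in choroid plexus markers gave 0 for MSC 3 wpi and 2 for IL-4 MSC 3 wpi. It turned IL-4 MSC against PBS at 3 wpi from 0 higher and 2 lower to 2 and 1. The cause was not tested.

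Directions reversed under 2 alternatives. With the neuron covariate, log2 fold changes became 0.042 for Ephb6 and 0.041 for Sema7a in PBS 1 wpi. In IL-4 MSC 1 wpi they became 0.043 for Sema4f, 0.021 for Plxna2, 0.051 for Epha10, 0.13 for Ephb6 and 0.076 for Robo2. Over time with IL-4 MSC they became −0.042 for Sema4f, 0.008 for Nrp2, −0.006 for Plxna2, −0.13 for Sema3f and −0.090 for Sema5b. Without the 4 high-striatum libraries, IL-4 MSC 3 wpi against Sham became 0.12 for Sema5a, 0.011 for Plxna1 and 0.009 for Unc5c, and against MSC −0.075 for Efnb2, −0.013 for Ephb1 and −0.11 for Sema5b. Over time it became −0.012 for Sema4f, −0.057 for Efnb2, −0.011 for Ephb1, −0.48 for Sema3f and −0.20 for Sema5b, and the week difference against MSC −0.007 for Efnb2. The cause was not tested.

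With 1 library left out at a time, counts ran from 5 to 10 (PBS 1 wpi), 6 to 8 (MSC 1 wpi), 20 to 30 (IL-4 MSC 1 wpi), 0 to 0 (PBS 3 wpi), 0 to 1 (MSC 3 wpi) and 0 to 14 (IL-4 MSC 3 wpi) against Sham. Between treatments they ran from 12 to 20 (IL-4 MSC against PBS, 1 wpi), 2 to 6 (IL-4 MSC against MSC, 1 wpi), 0 to 22 (IL-4 MSC against PBS, 3 wpi), 0 to 20 (IL-4 MSC against MSC, 3 wpi) and 0 to 0 for MSC against PBS in both weeks. Over time they ran from 2 to 3 (PBS), 2 to 4 (MSC) and 12 to 22 (IL-4 MSC), and for the week differences from 1 to 4 (PBS) and 3 to 13 (MSC).

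With the labels' replicate number as a block the counts were 10, 9 and 31 (PBS, MSC and IL-4 MSC at 1 wpi against Sham), 0, 1 and 4 (the same at 3 wpi), 21, 4 and 0 (IL-4 MSC against PBS, against MSC, and MSC against PBS at 1 wpi), 3, 7 and 0 (the same at 3 wpi), 2, 2 and 20 (over time) and 3 and 8 (week differences). The numbers do not pair the mice, since the correlation of deviations over 99 same-numbered pairs ran from −0.462 to 0.400 with a median of 0.0116, and 24 were over 0.1. The signalling list's counts against Sham were put through the same alternatives, a choice made after seeing the data. With the neuron covariate they became 0 (PBS 1 wpi), 2 (MSC 1 wpi), 12 (IL-4 MSC 1 wpi) and 8 (IL-4 MSC 3 wpi). For MSC 3 wpi DESeq2, library size only and the replicate block gave 1 each. For IL-4 MSC 3 wpi Sham of the same week gave 3, the striatum covariate, only the groups compared and leaving out the 4 high-striatum libraries 0 each, and leaving out the 2 libraries low in choroid plexus markers 2. With 1 library left out counts ran from 9 to 17, 12 to 24 and 32 to 40 (PBS, MSC and IL-4 MSC 1 wpi) and 0 to 0, 0 to 2 and 2 to 11 (the same at 3 wpi). The cause was not tested.

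Depth limits Efna4 most, at 4 to 23 counts a library.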
